A study of Mus musculus with 12 samples.

Results

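Il31ra, Osm and Osmr, the genes of the IL-31 receptor chain, of the cytokine oncostatin M and of the receptor chain that both signals share, were followed across 12 arrays of mouse dorsal skin. They are 3 of the 22180 genes with a row of their own. They were chosen from the measured values, because Il31ra and Osm move in opposite directions over these arrays, so the levels and differences of Il31ra and Osm are given as a description without a test. Osmr and the other genes of the pathway were tested over all genes.

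The study measured total RNA of skin from C57Bl/6 mice in 6 groups and asked whether psoriasis-like inflammation driven by the cytokine IL-17C persists without IL-6. WT mice carried neither change. IL-6KO mice are knockouts of Il6. IL-17C+ mice overexpress IL-17C from a transgene, and IL-17C+KO mice carry the transgene and lack Il6. From both transgenic genotypes, areas labelled involved (lesional) and uninvolved were taken, and similar regions were taken from WT and IL-6KO mice. Every group had n = 2 arrays, 1 at 10 weeks and 1 at 14 weeks of age. Each array was hybridised with a pool of male and female mice, 58 animals in all, with 4 in the younger pools of the WT and IL-6KO genotypes and 5 in every other. The promoter driving the transgene and whether an involved and an uninvolved pool came from the same mice could not be read from the sources used here. The number of arrays limits the precision of every value below. No group has more than 1 pool at an age. The p-values therefore rest on a spread in which differences between pools and age differences particular to a group cannot be told apart.

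IL-31 is a cytokine best known for causing itch. Its receptor pairs the chain encoded by Il31ra with the one encoded by Osmr. In mice, oncostatin M signals through Osmr paired with gp130, the shared receptor chain encoded by Il6st that also serves IL-6 and leukaemia inhibitory factor. These receptors have no kinase of their own and act through JAK kinases and STAT transcription factors, STAT3 above all. In skin, Osm is made mainly by infiltrating leukocytes and acts on keratinocytes, which carry Osmr, and both receptor chains are also found on itch-sensing neurons.

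The genes lie on separate chromosomes of GRCm38.p6. Il31ra (Entrez 218624) lies at chr13:112521931-112580732, with Il6st 15.1 kb and Ddx4 17.6 kb away on either side. Osm (Entrez 18413) lies at chr11:4236785-4241026, between Castor1 at 14.4 kb and Lif at 16.5 kb. Osmr (Entrez 18414) lies at chr15:6813568-6874968, between Rictor at 13.2 kb and Lifr at 215.6 kb. Both receptor genes therefore neighbour another receptor gene of the gp130 family, and Osm neighbours another ligand gene of it.

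The promoters of the receptor genes are printed because the paired chains differed in how far their RNA varied between skin samples. The RefSeq promoter table of GRCm38.p6 held 2 of the 3 genes. Each sequence runs 5′ to 3′ on the gene's strand, from 250 bases before the start site through the first 50 bases of the transcript. Capitals mark matches, searched on both strands, to TTCNNNGAA, the core letters of a STAT site, or TGANTCA, those of an AP-1 site.
Il31ra, chr13:112580613-112580912, minus strand: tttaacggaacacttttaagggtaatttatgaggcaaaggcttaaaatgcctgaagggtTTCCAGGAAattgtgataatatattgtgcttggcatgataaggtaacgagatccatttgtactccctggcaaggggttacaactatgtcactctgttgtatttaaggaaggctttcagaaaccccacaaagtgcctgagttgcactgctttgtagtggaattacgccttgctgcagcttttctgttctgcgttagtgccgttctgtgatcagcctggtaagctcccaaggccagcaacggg
Osmr, chr15:6874264-6874563, minus strand: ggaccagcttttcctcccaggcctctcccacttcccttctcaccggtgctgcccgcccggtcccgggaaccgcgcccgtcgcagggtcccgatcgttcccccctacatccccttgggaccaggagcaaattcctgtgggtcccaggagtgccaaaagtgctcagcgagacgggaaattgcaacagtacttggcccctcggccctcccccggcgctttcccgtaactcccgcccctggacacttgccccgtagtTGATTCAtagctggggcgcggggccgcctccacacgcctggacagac
The Il31ra window held 1 match to TTCNNNGAA, starting at position -191 from the start site, and 0 to TGANTCA. The Osmr window held 0 matches to TTCNNNGAA and 1 to TGANTCA, at position 4 of the transcript. This window lies wholly inside the span of Osmr given above, so its start site is not the outermost 5′ end of the gene. The Il31ra start site also lies inside the span of its gene, but that window reaches beyond it. The motifs do not overlap each other. Of 32851 promoters of the same length, 8.30% held a match to TTCNNNGAA and 7.81% to TGANTCA, and a match describes letters, not a bound site. The windows also differed in base composition: 44.7% G and C with 6 CpG in Il31ra, and 66.0% with 22 CpG in Osmr, against a median of 52.7% over all promoters.

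Before the results, the genotype labels were set against the arrays. The log2 level (log2 of the RMA intensity) of Il17c, the gene of the transgene's cytokine, was 4.67 and 4.96 in WT, 6.30 and 6.17 in IL-6KO mice, 5.81 and 6.63 in involved IL-17C+, and 4.74 and 4.16 in uninvolved IL-17C+ skin, at 10 and 14 weeks. It was 5.32 and 5.62 in involved IL-17C+KO and 6.16 and 6.25 in uninvolved IL-17C+KO skin. Arrays labelled IL-6KO thus stood above WT although they carry no transgene, and arrays labelled uninvolved IL-17C+ did not stand above WT at both ages. If this row reads the transgene only, those arrays go against their labels. The sources used here do not give the part of the transcript it reads. RNA of the transgene and of the mouse's own Il17c could not be told apart. One of the labels also calls the IL-6KO skin involved. The Il6 row was low in WT (2.92 and 2.88) as well as IL-6KO skin (2.68 and 2.79), so it does not check the deletion there. It was highest in uninvolved IL-17C+KO skin, at 4.93 and 5.00, and stood at 3.14 and 4.64 in the involved area, although Il6 is labelled as knocked out in both. It was 4.23 and 3.21 in involved and 3.28 and 3.02 in uninvolved IL-17C+ skin. Groups are therefore named below by their labels only. The fits without both IL-6KO arrays or without both uninvolved IL-17C+ arrays left each member's difference between the other groups at the values given below. They could not move it, because every group has an array at each age. These fits therefore do not check the labels. Of the 14 measured keratinocyte markers, 14 were above the array median on every array, and no pair of arrays held identical values.

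Il31ra was high in WT skin and in the skin labelled uninvolved IL-17C+, and low in involved IL-17C+ and uninvolved IL-17C+KO skin. Its log2 level was 6.83 at 10 weeks and 7.34 at 14 weeks in WT, and 7.99 and 7.42 in uninvolved IL-17C+ skin. In involved IL-17C+ skin it was 3.78 and 4.49. The 10-week value of that group was the only one of the 12 below the median of its array. In IL-6KO skin it was 5.24 and 5.47, between those groups, with no overlap with either. In IL-17C+KO skin the order of the areas was turned: 6.95 and 5.98 in the involved area and 4.86 and 4.37 in the uninvolved area. By group mean, Il31ra was highest in uninvolved IL-17C+ skin (7.71 ± 0.40 (SD, n = 2)), then in WT (7.09 ± 0.36 (SD, n = 2)), involved IL-17C+KO (6.46 ± 0.69 (SD, n = 2)), IL-6KO (5.35 ± 0.16 (SD, n = 2)), uninvolved IL-17C+KO (4.61 ± 0.34 (SD, n = 2)) and involved IL-17C+ skin (4.14 ± 0.50 (SD, n = 2)). The values of WT overlapped those of involved IL-17C+KO skin, and the values of the last pair overlapped. The other neighbours in this order did not overlap. From the lowest to the highest array the level spanned 4.21 on the log2 scale.

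Osm, the ligand, had its high values in the same pair of groups in which Il31ra was lowest. Its log2 level was 5.65 and 6.13 in involved IL-17C+ skin at 10 and 14 weeks, and 5.98 and 6.43 in uninvolved IL-17C+KO skin. In the remaining groups all 8 arrays lay lower. The values were 4.77 and 4.42 for WT, 4.99 and 4.15 for IL-6KO, 4.17 and 4.54 in uninvolved IL-17C+ and 4.22 and 4.10 in involved IL-17C+KO skin. These low values lie close to the array medians, which ran from 3.97 to 4.23, and the table gives no detection call. Group means ran from 6.20 ± 0.32 (SD, n = 2) in uninvolved IL-17C+KO and 5.89 ± 0.34 (SD, n = 2) in involved IL-17C+ skin, which overlapped, to 4.59 ± 0.25 (SD, n = 2) in WT. The means of IL-6KO (4.57 ± 0.60 (SD, n = 2)), uninvolved IL-17C+ (4.36 ± 0.27 (SD, n = 2)) and involved IL-17C+KO skin (4.16 ± 0.083 (SD, n = 2)) followed, each overlapping the next. The range over arrays was 2.33.

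Osmr, the receptor chain shared by IL-31 and oncostatin M, varied least of the 3 genes, over 1.70 on the log2 scale. Its log2 level was 7.13 and 7.32 for WT, 7.17 and 8.07 for IL-6KO, 7.88 and 7.79 in involved IL-17C+ and 7.60 and 6.88 in uninvolved IL-17C+ skin. It was 7.77 and 7.92 in involved IL-17C+KO and 8.02 and 8.58 in uninvolved IL-17C+KO skin. Only this highest group stood clear of the next in the order of means, and all other neighbours overlapped. Its mean of 8.30 ± 0.40 (SD, n = 2) compared with 7.22 ± 0.13 (SD, n = 2) in WT, the lowest.

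**Figure D1:**
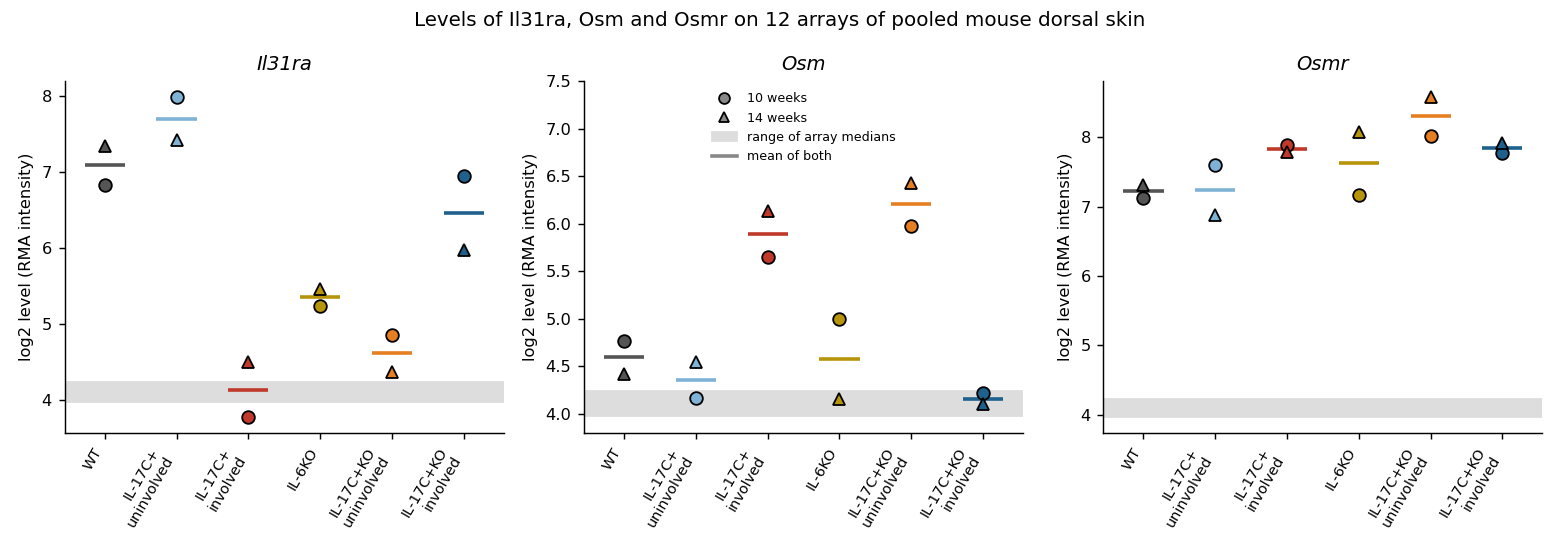
Log2 RMA intensity of Il31ra, Osm and Osmr by group, with 1 point per array (circle 10 weeks, triangle 14 weeks), a line at the mean of both and a grey band for the range of array medians. Il31ra is lowest, at 3.78 to 4.86, where Osm is highest, at 5.65 to 6.43, in the involved IL-17C+ and uninvolved IL-17C+KO groups.

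In IL-17C+ mice, involved skin had less Il31ra and more Osm than either control. Differences below are log2 differences over both ages ± the standard error of limma, with n = 2 arrays a group, and a gene passed at a Benjamini-Hochberg adjusted p under 0.05 over all genes. Against WT, Il31ra was lower by 7.74-fold (-2.95 ± 0.37) and Osm higher by 2.45-fold (1.30 ± 0.31). Against uninvolved IL-17C+ skin, Il31ra was lower by 11.9-fold (-3.57 ± 0.37) and Osm higher by 2.89-fold (1.53 ± 0.31). The direction was the same at both ages: against WT, Il31ra differed by -3.05 at 10 weeks and -2.85 at 14 weeks, and Osm by 0.88 and 1.71. The difference of Il31ra from WT was larger without the 14-week involved array (-3.44) and smaller without the 10-week one (-2.47). Osmr was 0.61 above WT (95% interval -0.11 to 1.33, adjusted p = 0.52) and 0.59 above uninvolved IL-17C+ skin (-0.12 to 1.31, adjusted p = 0.519), and neither passed. Over all genes, 1.80% passed against WT and 1.61% against uninvolved IL-17C+ skin.

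In the IL-17C+KO mice, labelled as lacking Il6, the areas stood the other way round. The mean log2 level of Saa3, an acute-phase protein of inflamed tissue, was also higher in the area labelled uninvolved (11.54) than in the one labelled involved (5.16), where the IL-17C+ areas had 4.14 and 10.71. Whether the labels of the IL-17C+KO areas were exchanged was not tested, and every comparison with these areas rests on those labels. Involved IL-17C+KO skin had 3.60-fold more Il31ra (1.85 ± 0.37) and 4.13-fold less Osm (-2.05 ± 0.31) than uninvolved IL-17C+KO skin. At 10 and 14 weeks the differences were 2.10 and 1.60 for Il31ra and -1.76 and -2.33 for Osm. Without the 10-week involved array the difference of Il31ra was 1.32, and without the 14-week one 2.38. Against IL-6KO skin, involved IL-17C+KO skin had 2.16-fold more Il31ra (1.11 ± 0.37), with 1.72 at 10 weeks and 0.51 at 14 weeks. This value was 0.58 without the 10-week involved IL-17C+KO array. Osm differed there by -0.42 ± 0.31, and by 0.09 once the 10-week IL-6KO array was left out. Osmr differed by -0.45 between the areas (95% interval -1.17 to 0.26, adjusted p = 0.99997) and by 0.22 from IL-6KO skin (-0.49 to 0.94, adjusted p = 0.999), and passed in neither. Of all genes, 0.505% passed between the areas and 0.171% against IL-6KO skin.

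Compared directly, IL-17C+KO and IL-17C+ pools had opposite differences in the areas labelled involved and uninvolved. In involved skin, IL-17C+KO pools had 5.02-fold more Il31ra (2.33 ± 0.37) and 3.32-fold less Osm (-1.73 ± 0.31) than IL-17C+ pools. In uninvolved skin they had 8.52-fold less Il31ra (-3.09 ± 0.37) and 3.60-fold more Osm (1.85 ± 0.31). The effect of area (involved minus uninvolved) in IL-17C+KO mice minus that in IL-17C+ mice, called the area-effect difference below, was 5.42 ± 0.52 for Il31ra and -3.58 ± 0.44 for Osm. Osmr differed by 0.01 in involved skin (95% interval -0.71 to 0.73, adjusted p = 0.997). In uninvolved skin it was 1.06 higher in IL-17C+KO than in IL-17C+ pools. The interval of 0.34 to 1.78 for this difference left out 0, but the value did not pass over all genes (adjusted p = 0.274). The area-effect difference of Osmr was -1.05 ± 0.47 (95% interval -2.06 to -0.032, adjusted p = 0.40). This interval also left out 0, but the value did not pass over all genes. These comparisons called 0.649%, 0.712% and 2.58% of all genes, in that order. The comparisons of this and the preceding paragraphs share arrays, so they are not independent of each other.

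Outside the involved and IL-17C+KO skin, Osm differed little from WT. IL-6KO skin had 3.33-fold less Il31ra than WT (-1.74 ± 0.37), while Osm differed by -0.02 ± 0.31 and Osmr by 0.40 (95% interval -0.32 to 1.11, adjusted p = 0.822). The small Osm difference joined opposite signs, 0.22 at 10 weeks and -0.27 at 14 weeks. Uninvolved IL-17C+ skin differed from WT by 0.62 ± 0.37 in Il31ra, -0.24 ± 0.31 in Osm and 0.02 in Osmr (95% interval -0.70 to 0.73, adjusted p = 0.998). Of all genes, 0.455% passed between IL-6KO and WT and 0.0541% between uninvolved IL-17C+ skin and WT. Between 14 and 10 weeks over all groups, Il31ra differed by -0.10 ± 0.21 and Osm by -0.00058 ± 0.18. Both values joined opposite signs. From 10 to 14 weeks Osm fell in WT (4.77 to 4.42), IL-6KO (4.99 to 4.15) and involved IL-17C+KO skin (4.22 to 4.10). It rose in involved IL-17C+ (5.65 to 6.13), uninvolved IL-17C+ (4.17 to 4.54) and uninvolved IL-17C+KO skin (5.98 to 6.43). Il31ra rose in WT, IL-6KO and involved IL-17C+ skin and fell in the other groups. Osmr differed by 0.16 ± 0.19 (adjusted p = 0.775). For age, 0% of all genes passed in limma, with 1856 at an unadjusted p under 0.05. Osmr passed in 0 of the 10 comparisons.

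**Figure D2:**
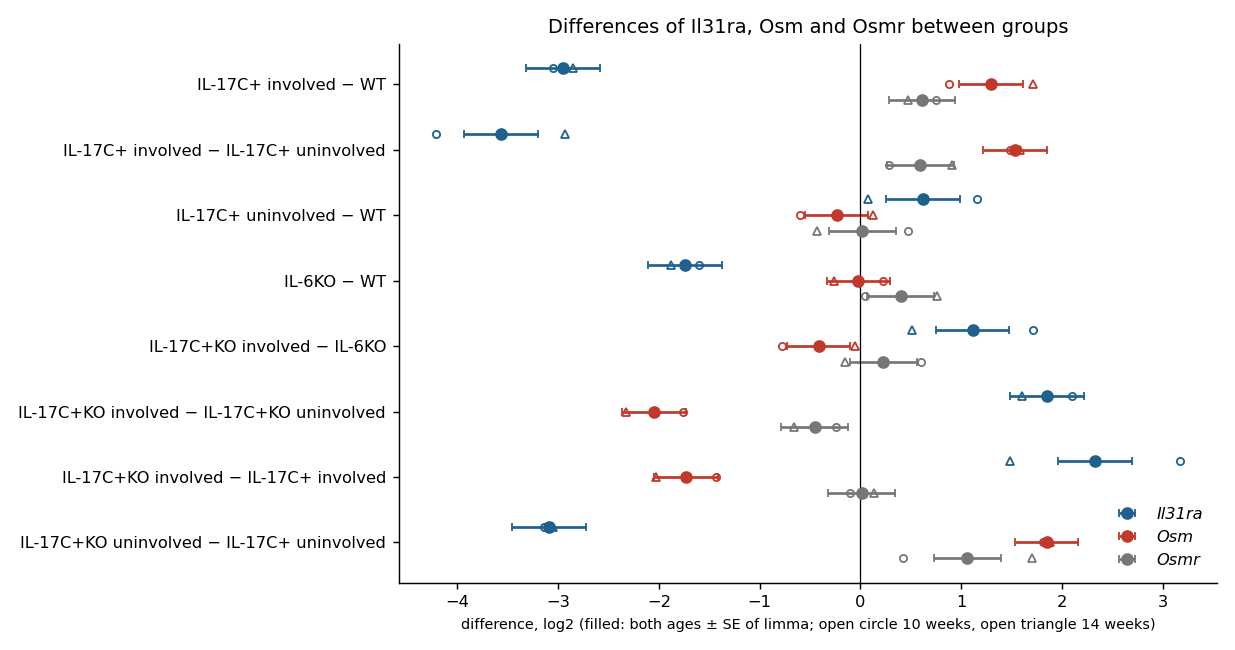
Log2 differences of Il31ra (blue), Osm (red) and Osmr (grey) in 8 comparisons between groups. Filled points and bars are the value over both ages ± the standard error of limma, open circles the 10-week and open triangles the 14-week difference. Il31ra and Osm lie on opposite sides of 0 in both comparisons of involved with uninvolved skin, and each changes sides between IL-17C+ and IL-17C+KO mice.

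The opposite levels of Il31ra and Osm lay between sets of groups. The arrays fell into a set of 4 with high Osm, those of involved IL-17C+ and uninvolved IL-17C+KO skin, and a set of 8 with low Osm. All 4 arrays with high Osm had Il31ra below 5, and all 8 others had it above 5. Pearson's r between Il31ra and Osm was -0.77 over all 12 arrays, a value that carries the gap between these sets. Within the 8 arrays of the other groups it was -0.23, with a Spearman's rho of -0.071. Over these 8 arrays Il31ra still ran from 5.24 in IL-6KO to 7.99 in uninvolved IL-17C+ skin, while Osm stayed between 4.10 and 4.99. Between Osm and Osmr the sign turned with the arrays used, from r = 0.45 over all 12 to -0.79 within the 8. Between Il31ra and Osmr, r was -0.60 over all 12 and -0.32 within the 8. Il31ra was also low where Il17c was high, with r = -0.85 over all 12 and -0.89 over the same 8 arrays. These values share the arrays, their normalisation and the group structure, and are given without a test.

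**Figure D3:**
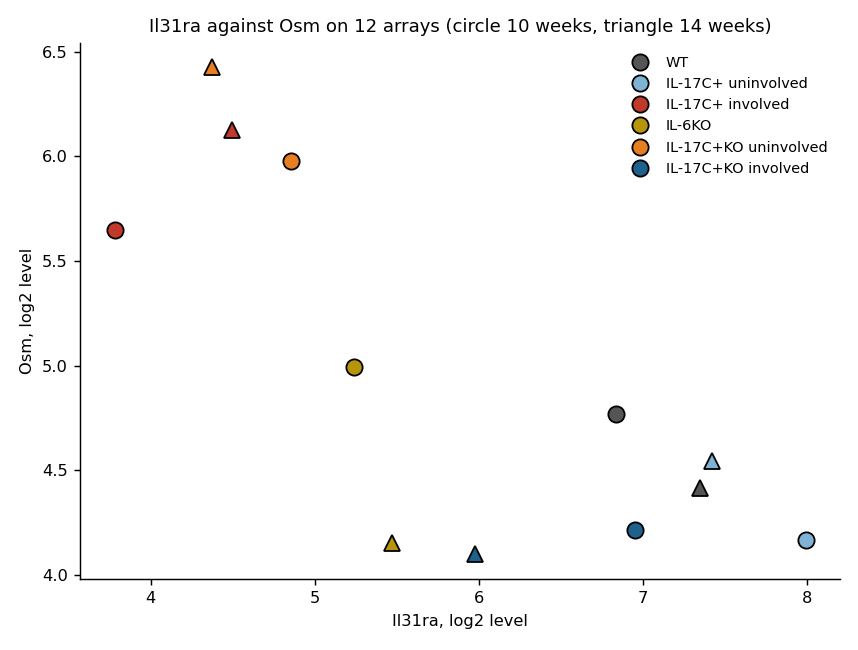
Log2 level of Osm against that of Il31ra on each of the 12 arrays, coloured by group (circle 10 weeks, triangle 14 weeks). The 4 arrays of involved IL-17C+ and uninvolved IL-17C+KO skin lie at the upper left, apart from the other 8, which spread along Il31ra at Osm levels of 4.10 to 4.99.

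Of the partners of these genes, the gp130 chain Il6st varied little. Its log2 level ran from 8.33 to 9.15 over the arrays, a range of 0.82, and its area-effect difference was 0.17 ± 0.45 (adjusted p = 0.955). Il31, the ligand of the receptor that Il31ra forms, was below the array median on all 12 arrays, at 3.01 to 3.65, so its row gives no usable level. Lif, the ligand gene beside Osm, ran from 4.35 to 4.87. Il6 was 1.82 ± 0.41 higher in uninvolved IL-17C+KO than in uninvolved IL-17C+ skin and did not pass (adjusted p = 0.0773). None of the 9 measured ligand genes of the gp130 family other than Osm, of 11 listed, passed in any of the 10 comparisons, and 6 of them were above the array median on at least 2 arrays. With 0% to 2.58% of all genes passing in these comparisons, a count of 0 among so few genes does not set the ligands apart.

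Among the 5 measured gp130 family receptors other than Osmr, of 6 listed, Il6ra was the only gene to pass, and in the area-effect difference only. Il6ra encodes the chain that binds IL-6. Its log2 level was 6.64 and 6.70 in involved IL-17C+ and 7.05 and 7.12 in uninvolved IL-17C+KO skin, the groups with high Osm, at 10 and 14 weeks. It was 8.17 and 7.55 in uninvolved IL-17C+, 7.92 and 7.70 in involved IL-17C+KO, 7.43 and 8.06 in WT, and in IL-6KO skin 7.29 and 6.88. The low pair of groups did not overlap with the opposite area of the same genotype. The area-effect difference of Il6ra was 1.91 ± 0.41 (adjusted p = 0.0283), in the direction of Il31ra. It passed in 5 of 12 fits with 1 array left out, and its adjusted p was 0.384 with the keratinocyte and 0.9997 with the muscle marker mean as a covariate. Lifr, the receptor chain for leukaemia inhibitory factor and the neighbour of Osmr, had an area-effect difference of 1.38 ± 0.40 and did not pass (adjusted p = 0.106).

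Of the genes listed as carrying or damping the receptors' signal, 0 of 9 measured JAK and STAT mediators, of 10 listed, and 0 of 10 feedback inhibitors passed in the 10 comparisons. Beside 0% to 2.58% of all genes, these counts lie near the background too. Stat3, the main transcription factor downstream of oncostatin M, had an area-effect difference of -0.96 ± 0.42 (adjusted p = 0.383). Socs3, the feedback inhibitor that STAT3 induces, had -1.44 ± 0.37 (adjusted p = 0.0666).

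In transgenic skin, the genes known to respond to STAT3 that passed were higher in the groups with high Osm. Of 15 such genes, all measured, 4 rose and none fell in involved IL-17C+ skin against WT, with a median difference of 0.91 over the list, where 1.80% of all genes passed. These were Saa3, Timp1, Lcn2 and Cebpb. Whether oncostatin M or another signal raised them was not tested. Saa3 rose by 6.64 ± 0.51 (adjusted p = 7.87e-05). Timp1, an inhibitor of matrix metalloproteinases and a classical target of oncostatin M, rose by 3.10 ± 0.41 (adjusted p = 0.00236). Lcn2, an iron-binding antimicrobial protein, rose by 3.08 ± 0.45 (adjusted p = 0.00414). Reg3g, an antimicrobial lectin, had a difference of 1.71 ± 0.57 and did not pass (adjusted p = 0.198). With each array left out in turn, Saa3 passed in 12 of 12 fits, Timp1 in 11 and Lcn2 in 10. With the skeletal muscle marker mean as a covariate Saa3 differed by 5.63 ± 1.04 (adjusted p = 0.484), and 0 genes passed in limma, with 915 at an unadjusted p under 0.05.

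In the other comparisons the counts of these 15 genes were 5 higher and none lower against uninvolved IL-17C+ skin (median 0.53, 1.61% of all genes called), and 4 higher in uninvolved IL-17C+KO against uninvolved IL-17C+ skin (median 0.48, 0.712% of all genes). In involved IL-17C+KO skin 2 fell and none rose, both against the uninvolved area (median -0.53, 0.505% of all genes) and against involved IL-17C+ skin (median -0.79, 0.649% of all genes). They were Saa3 and Timp1. Saa3 fell by 6.38 (SE 0.51, adjusted p = 0.000175) between the areas and Timp1 by 3.26 (SE 0.41, adjusted p = 0.00306). In IL-6KO against WT, where 0.455% of all genes passed, only Lcn2 of the list did, at 2.47 ± 0.45 (adjusted p = 0.0376), in skin where Osm differed by -0.02. This call held in 5 of 12 fits with 1 array left out. In the area-effect difference 7 were lower and none higher, with a list median of -1.43, beside 2.58% of all genes. The median over all genes ran from -0.0091 to 0.032 over the 10 comparisons.

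**Figure D4:**
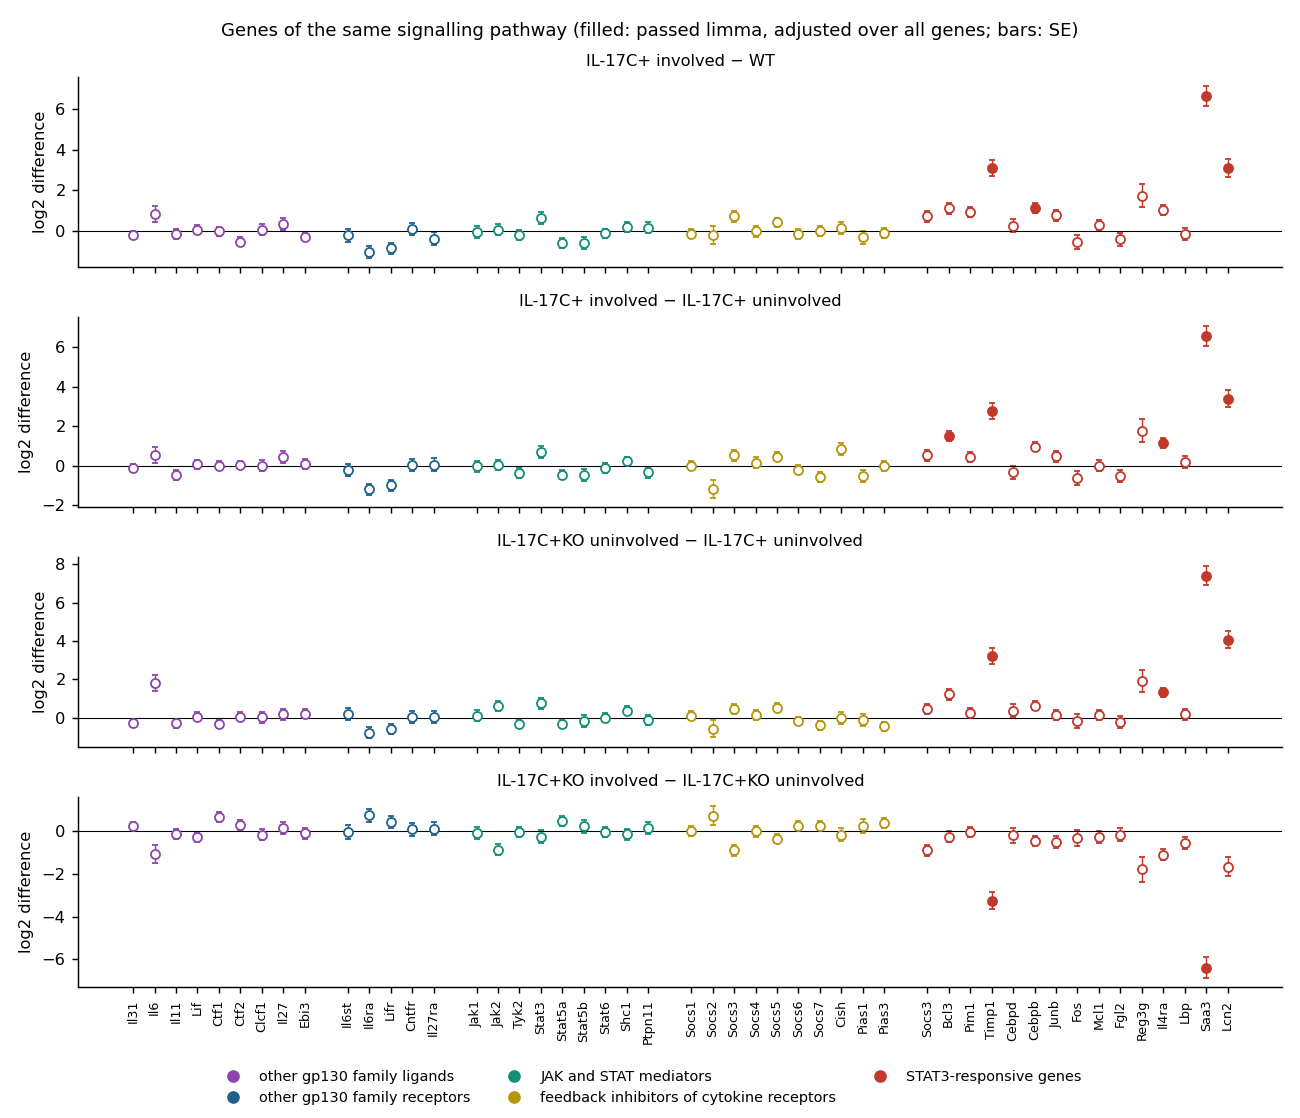
Log2 differences ± standard error for the genes of the receptors' pathway in 4 comparisons, grouped by role, with filled points for genes that passed in limma. Saa3 and Timp1 pass in all 4 comparisons, while no other gp130 family ligand, JAK or STAT mediator or feedback inhibitor passes in any.

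Itch and type 2 inflammation are the setting in which IL-31 is best known. Of 20 measured genes of this setting, of 21 listed, 1 rose in involved IL-17C+ skin against WT (1.80% of all genes called), 2 against uninvolved IL-17C+ skin (1.61%), and 2 in uninvolved IL-17C+KO against uninvolved IL-17C+ skin (0.712%). None fell, and 3 were lower in the area-effect difference (2.58%). Il33, an epithelial alarm cytokine, rose by 1.55 ± 0.35 against WT (adjusted p = 0.0422), and its area-effect difference was -2.73 ± 0.49 (adjusted p = 0.0104). Nppb, a natriuretic peptide that also serves as an itch transmitter in sensory neurons of the mouse, rose by 2.13 ± 0.45 against uninvolved IL-17C+ skin (adjusted p = 0.0325). Its area-effect difference was -2.92 ± 0.63 (adjusted p = 0.0289) and passed in 6 of 12 fits with 1 array left out. Il4ra, the receptor chain shared by IL-4 and IL-13, is also on the list of STAT3-responsive genes and rose by 1.15 ± 0.25 in the same comparison (adjusted p = 0.0356). Its area-effect difference was -2.25 ± 0.35 (adjusted p = 0.00396). Il13ra1, the partner chain of Il4ra, had -0.81 ± 0.47 and did not pass (adjusted p = 0.591). With 1 array left out, the rise of Il33 passed in 6 of 12 fits, that of Nppb in 8 and that of Il4ra in 6, and none passed with the muscle mean as a covariate.

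Markers of other cells moved with Osm and Il31ra, and in whole skin fewer cells of a type and less RNA per cell cannot be told apart. Neutrophil markers were high in the groups with high Osm. The summed intensity of 14 measured markers, of 15 listed, was 1020 to 1903 in involved IL-17C+ and 1327 to 2108 in uninvolved IL-17C+KO skin. It was 191 to 263 in WT, 211 to 215 in IL-6KO, 186 to 239 in uninvolved IL-17C+ and 194 to 268 in involved IL-17C+KO skin. Of these 14, 3 were below the array median on all arrays. In involved IL-17C+ skin 7 rose against WT and none fell (median 1.55, 1.80% of all genes called). In involved IL-17C+KO skin 8 fell against the uninvolved area and none rose (median -1.99, 0.505% of all genes). Retnlg, a resistin-like protein of neutrophils, rose by 5.08 ± 0.46 against WT (adjusted p = 0.000248). The mean marker level and Osm had r = 0.95 over all 12 arrays and 0.12 within the 8 with low Osm. The part of neutrophil markers in the level of Osm was not tested.

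Mast cell markers were also high in these groups. Their summed intensity over 9 genes was 1153 to 1256 in involved IL-17C+ and 803 to 841 in uninvolved IL-17C+KO skin, against 239 to 480 in the remaining groups. Of the 9 genes 4 rose in involved IL-17C+ skin against WT and none fell, beside 1.80% of all genes called, and 2 were below the array median on all arrays. Their part was not tested either.

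Skeletal muscle markers moved with Il31ra over the arrays, but not between the IL-17C+KO areas at 14 weeks. Their summed intensity over 18 genes was 18993 to 30895 in WT and 22311 to 27553 in uninvolved IL-17C+ skin, but 4354 to 5521 in involved IL-17C+ skin. It was 8377 to 12814 in IL-6KO, 10057 to 25434 in involved IL-17C+KO and 6996 to 10376 in uninvolved IL-17C+KO skin. In involved IL-17C+ skin 16 of the 18 fell against WT and none rose, beside 1.80% of all genes called. Between the IL-17C+KO areas 0 of the 18 passed (median 0.99, 0.505% of all genes). The mean log2 level there was 9.96 in involved and 8.08 in uninvolved skin at 10 weeks, but 8.58 and 8.64 at 14 weeks. Over the 12 arrays the mean marker level and Il31ra had r = 0.91, and over the 8 arrays with low Osm r = 0.89. With the muscle mean as a covariate, Il31ra differed by -2.13 from WT in involved IL-17C+ skin and by -1.23 in IL-6KO skin, and the area-effect difference was 4.26. Osm differed by 1.68 from WT in involved IL-17C+ skin in that fit.

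Keratinocyte markers overlapped between the groups with high and low Osm. Their summed intensity over 14 measured genes, of 15 listed, was 15398 to 15594 in involved IL-17C+ and 13577 to 15259 in uninvolved IL-17C+KO skin. It was 13880 to 19217 in WT, 15683 to 19406 in IL-6KO, 14812 to 17282 in uninvolved IL-17C+ and 17669 to 21019 in involved IL-17C+KO skin. Of these genes, 3 fell and 1 rose in involved IL-17C+ skin against WT, where 1.80% of all genes passed. Krt77, a keratin of the upper epidermis, fell by 4.22 (SE 0.54, adjusted p = 0.00188), and Flg, a protein of the cornified layer, had 2.43 ± 0.59 without passing (adjusted p = 0.0605). The mean of these markers had r = -0.85 with Osm over all 12 arrays and -0.83 over the 8 with low Osm. With Osmr it had r = -0.14 over all 12 and 0.79 over the 8. With that mean as a covariate the difference of Osm in involved IL-17C+ skin from WT was 0.89, and the area-effect difference -2.45.

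Of 15 measured macrophage and dendritic cell markers, of 18 listed, 1 rose and 3 fell in involved IL-17C+ skin against WT (1.80% of all genes). Retnla, a resistin-like protein of alternatively activated macrophages, fell by 5.10 (SE 0.72, adjusted p = 0.00346). Of 11 fibroblast and collagen markers, 3 fell in IL-6KO against WT and none rose (0.455% of all genes). In involved IL-17C+KO skin 2 fell against the uninvolved area (median -0.82, 0.505% of all genes) and 2 against involved IL-17C+ skin (-0.70, 0.649%). None rose there, and 2 were lower in the area-effect difference (2.58%). These markers summed to 9522 to 10365 in involved and 18725 to 20723 in uninvolved IL-17C+KO skin. Their mean had r = 0.86 with Il31ra over the 8 arrays with low Osm but -0.074 over all 12. Of 16 measured hair follicle markers, of 17 listed, 8 rose against WT in IL-6KO skin (0.455% of all genes), 4 in uninvolved IL-17C+ (0.0541%) and 3 in involved IL-17C+ skin (1.80%), and none fell. In involved IL-17C+KO skin, hair follicle markers fell against IL-6KO skin (6, beside 0.171% of all genes), against the uninvolved area (3, 0.505%) and against involved IL-17C+ skin (2, 0.649%), and none rose. Of 9 adipocyte markers 1 fell in involved IL-17C+ skin against WT (1.80% of all genes). No endothelial marker of 8, T cell marker of 11 measured or Schwann cell and sensory nerve marker of 8 measured passed in any comparison. Of the last pair of lists, 4 T cell and 3 nerve markers were below the array median on all arrays. The part of these lists in the members' levels was not tested.

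**Figure D5:**
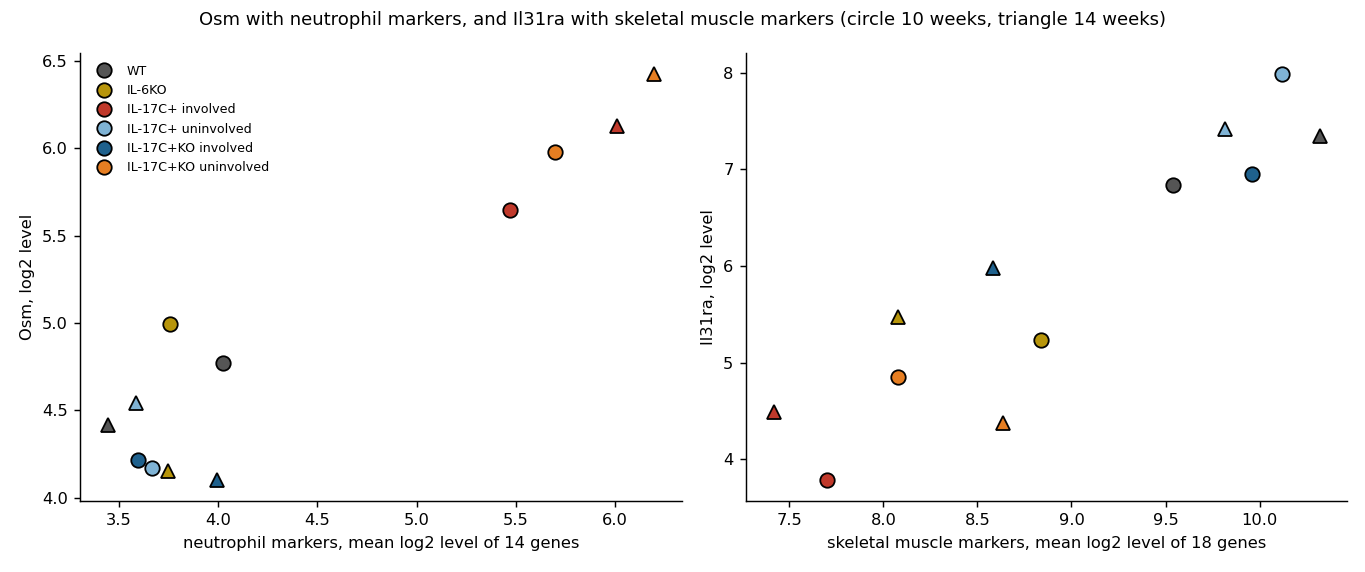
Left, log2 level of Osm against the mean log2 level of 14 neutrophil markers. Right, log2 level of Il31ra against the mean of 18 skeletal muscle markers. Each point is 1 of 12 arrays (circle 10 weeks, triangle 14 weeks), coloured by group. On the left the 4 arrays of involved IL-17C+ and uninvolved IL-17C+KO skin stand apart, and on the right the arrays spread along a slope with r = 0.91.

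Genes with the most similar pattern were sought by Pearson's r over the 12 arrays among 13122 genes. For Il31ra they were Cdh4 (r = 0.98), a cadherin, Il20ra (0.98), a receptor chain for IL-20 family cytokines, Skint5 (0.97), Akap12 (0.96) and Osr2 (0.96). Its most opposite genes were Degs2 (-0.95), an enzyme of ceramide synthesis, the defensin Defb14 (-0.93) and the kallikrein Klk13 (-0.93). For Osm the most similar were the myeloid receptor Trem1 (0.96), which is also one of the neutrophil markers, Inhba (0.95), an activin subunit, Pglyrp1 (0.95), a neutrophil granule protein, Myo7a (0.95) and the metalloproteinase Mmp9 (0.95). The most opposite were Il20rb (-0.94), the second chain of the IL-20 receptor, Gdpd2 (-0.92) and Efna3 (-0.91). The r values with Osm carry the gap between the arrays with high and low Osm. Spearman's rho was 0.76 for Trem1, 0.74 for Inhba, 0.90 for Pglyrp1 and Myo7a and 0.85 for Mmp9. It was -0.81 for Il20rb, -0.86 for Gdpd2 and -0.80 for Efna3. The chains of one IL-20 receptor were thus among the genes most similar to Il31ra and most opposite to Osm. Il31ra and Osm were chosen for their opposite directions, so these lists are not independent, and a link between them was not tested. For Osmr the most similar were Hspa9 (0.95), a mitochondrial chaperone, Pitpna (0.95), Psmd2 (0.93), a proteasome subunit, Il13ra1 (0.93) and Sec11a (0.92). Its most opposite were Pias3 (-0.89), an inhibitor of STAT3, Crtc1 (-0.89) and Nr3c2 (-0.88). For the chromosomal neighbours, r was 0.25 for Il6st and -0.34 for Ddx4 with Il31ra. It was 0.33 for Castor1 and 0.56 for Lif with Osm, and 0.34 for Rictor and -0.24 for Lifr with Osmr. These values cannot be ranked against those of genes picked as the extremes of 13122. Ddx4 lay below the array median on all 12 arrays, so its value gives no usable likeness.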

How the data were processed

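RNA of pooled mouse dorsal skin was measured on 12 Affymetrix arrays in 6 groups. The deposited table holds RMA intensity values on a linear scale, made by the authors with Affymetrix Expression Console, per the submitters' processing notes; the sources used here give no versions. They ran from 2.497 to 18384.72, and log2 was taken here of the deposited values. Of 41345 rows, 23521 name 1 gene, 1814 several and 16010 none. Rows naming 1 gene were used, the row with the highest mean standing for each of 1082 genes with more, which gave 22180 genes. Each member has 1 row. Of these genes, 21994 were found in the RefSeq table of GRCm38.p6, which also gave the gene positions.

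Differences were fitted in R 4.3.3 with limma 3.58.1 (lmFit, eBayes with trend) as group plus age over all 12 arrays, with 5 residual and 7.65 prior degrees of freedom. The age, shared by the arrays with the same replicate number, is a block. Benjamini-Hochberg adjustment ran over the 22180 genes of each comparison, and an adjusted p under 0.05 counted as passing. The area-effect difference is involved minus uninvolved in IL-17C+KO minus the same in IL-17C+ skin. The members, 6 pathway lists and 11 marker lists were chosen with earlier results of these data known, so their counts are descriptions.

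Beside the members, Il17c and Il6, the text names each member's neighbouring genes, the 5 genes most and the 3 least correlated with it among genes above the array median on at least 2 arrays (leaving out small RNAs, predicted loci, antigen receptor segments and olfactory or vomeronasal receptors), and up to 3 genes of a list that passed with the largest that did not. Cebpb completes a count and was named after its values were seen. Alternatives covered the block, the trend, a filter on low genes, another normalization, marker means as covariates, the arrays used and leaving out each array. Genes of a list that lacked their own row were not used here.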

Additional observations from a re-analysis of the deposited data

Results flagged for a closer look

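In IL-17C+ mice the difference of involved from uninvolved skin was -3.57 for Il31ra and 1.53 for Osm on the log2 scale, and in IL-17C+KO mice, labelled as lacking Il6, it was 1.85 and -2.05. Each gene differed one way on the arrays of one genotype and the opposite way on those of the other, at both ages. The difference of involved transgenic skin from skin without the transgene also had opposite signs at both ages: -2.95 in IL-17C+ and 1.11 in IL-17C+KO mice for Il31ra, and 1.30 and -0.42 for Osm. For Il31ra and Osm these contrasts were not tested, because both genes were chosen for this pattern. At 14 weeks the Osm difference in IL-17C+KO mice was -0.053. The difference of involved from uninvolved skin turned for Saa3 too, from 6.56 in IL-17C+ to -6.38 in IL-17C+KO mice. Every contrast in this paragraph that uses the IL-17C+KO areas rests on their labels. Whether these labels were exchanged was not tested. The area effect differed between the genotypes in limma for Il6ra (1.91), Nppb (-2.92), Il33 (-2.73) and Il4ra (-2.25). With 1 array left out these passed in 5, 6, 10 and 12 of 12 fits, in that order.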

How the results depend on the processing

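Several alternatives could not move a group difference of the members, as each group has 1 array at each age and each member 1 row. They were the fits without the block or the trend, the low-gene filter, the row mean, only the arrays compared and a block of genotype and age. Leaving out arrays of other groups could not move it either. The direction of each difference of Il31ra and Osm that exceeded its standard error held under each alternative tried, with an exception for Osm. In involved IL-17C+KO against IL-6KO skin it turned from -0.42 to 0.15 once the 10-week arrays of WT and IL-6KO were left out. It turned to 0.090 without the 10-week IL-6KO array alone. Osmr passed under none. With the skeletal muscle mean as a covariate Il31ra moved to -2.13 (involved IL-17C+ against WT), -2.73 (against uninvolved IL-17C+), -1.23 (IL-6KO against WT), 1.73 and -2.53 (IL-17C+KO against IL-17C+ in involved and uninvolved skin) and 4.26 (area-effect difference), and Osm to 1.68, 1.92 and -4.12 in the first, the second and the last of these. With the keratinocyte mean, Osm moved to 0.89, 1.03, -1.42 (between IL-17C+KO areas), -0.99, 1.46 and -2.45, and Il31ra to 4.75 in the area-effect difference. Some values changed sign. Osmr did so with another quantile normalization (-0.0011 for age, -0.11 for IL-17C+KO against IL-17C+ in involved skin, -0.22 for uninvolved IL-17C+ against WT), with the muscle mean (-0.012), with the keratinocyte mean (-0.31 and -0.024) and once the 10-week arrays of WT and IL-6KO were left out (-0.027, -0.24 and -0.090). The area-effect difference of Il6st turned to -1.10 with the muscle and -0.52 with the keratinocyte mean, and with the muscle mean Flg (from 2.43 to -0.24) and Nppb (from 1.83 to -0.16) in involved IL-17C+ skin against WT turned, neither of which had passed. The cause of these changes was not tested.

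Age is in the model as a block, and the replicate number used here only follows the age. Without that block, 7 genes were called for uninvolved IL-17C+ against WT (main 12), 26 for IL-6KO against WT (101) and 14 for involved IL-17C+KO against IL-6KO (38). A block of genotype and age gave 62 genes between the IL-17C+KO areas (112). No call of Osmr changed under either.

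Counts of genes called, in the order involved IL-17C+ against WT (399), against uninvolved IL-17C+ (357), uninvolved IL-17C+ against WT (12), IL-6KO against WT (101), involved IL-17C+KO against IL-6KO (38), against its uninvolved area (112), IL-17C+KO against IL-17C+ in involved (144) and uninvolved skin (158), and the area-effect difference (573), changed by over 1.5 times as follows. With only the arrays compared, which leaves fewer degrees of freedom, the first 5 were 883, 770, 127, 266 and 130 and the last 3 were 436, 354 and 864. With the muscle mean they were 0, 0, 34, 0, 0, 30, 0, 3 and 10 in limma (915, 732, 868, 567 and 880 genes at an unadjusted p under 0.05 where the count was 0), and with the keratinocyte mean the second was 133 and those from the fifth to the seventh and of the last were 23, 21, 6 and 81. Another quantile normalization gave 678, 2, 163 and 2 for the first and the third to the fifth. Without the trend the third to the fifth were 3, 63 and 15, and the filter on low genes gave 19 for the third. With those 10-week arrays of WT and IL-6KO left out the second to the fifth were 666, 1, 13 and 2, and the seventh and the last 225 and 861. In fits chosen after seeing the data, leaving out both uninvolved IL-17C+ arrays gave 62 and 225 for the fifth and the seventh, and leaving out both IL-6KO arrays changed no count by that much.

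Leaving out 1 array in turn (12 fits) moved Il31ra from -3.44 to -2.47 for the first of these comparisons, from -4.05 to -3.08 for the second, from 0.58 to 1.64 for the fifth, from 1.32 to 2.38 for the sixth, from 1.80 to 2.85 for the seventh and from 4.89 to 5.95 for the last. Osm ran from -0.53 to 0.48 for the fourth and from -0.92 to 0.090 for the fifth. Osmr ran from -0.51 to 0.55 for the third, -0.045 to 0.84 for the fourth, -0.22 to 0.67 for the fifth and -0.14 to 0.17 for the seventh, and the area-effect difference of Il6st from -0.25 to 0.60. Counts of genes called ran, in order, from 65 to 509, 63 to 519, 0 to 87, 7 to 153, 0 to 62, 16 to 160, 23 to 244, 59 to 200 and 208 to 731. In the third and the fifth comparison, the fits with 0 calls in limma left out the 10-week WT array (804 genes at an unadjusted p under 0.05), the 10-week involved IL-17C+KO array (493) or the 14-week IL-6KO array (1562). Of the results for other named genes under all alternatives, 1098 kept their direction and side of the threshold, 125 lost the call, 60 gained one and 6 changed sign. No detection call came with the table, so levels near the array median, those of Osm in 4 groups included, may lie at background.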
